A study of Mus musculus with 14 samples.

Results

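Eph receptors are a family of receptor tyrosine kinases, and ephrins are their membrane-bound ligands. The ephrin-B ligands cross the membrane and can signal in both directions, while the ephrin-A ligands are held to it by a lipid anchor. In the intestinal crypt, EphB receptors are known as targets of Wnt signalling that are made by stem and progenitor cells at the base. Ephrin-B1 and ephrin-B2 are made by cells further up, and repulsion between the cells that carry them keeps the compartments of the crypt apart and holds Paneth cells at the bottom. The 10 genes listed for this system were Ephb2, Ephb3, Ephb4, Ephb6, Epha1, Epha2, Epha4, Epha7, Efnb1 and Efnb2, and they were taken by gene symbol from the platform's annotation. Of these 10 symbols, 9 matched 1 probe set each among 24675 named genes. Ephb2 was not analysed here. All 9 matched genes passed the filter on low values.

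The data are 14 Affymetrix Mouse Gene 2.0 ST arrays of sorted crypt cells, and the labels state that individual mice were used. All mice carried an EGFP and CreERT2 cassette in the Lgr5 gene (Lgr5-EGFP-IRES-CreERT2) and had tamoxifen on 5 consecutive days, 1 month before they were killed. WT mice had this allele alone. Atg7KO mice also had floxed Atg7 (Atg7(fl/fl)), an autophagy gene, which Cre can delete only in cells that express Lgr5 and their later progeny. The sort took CD24(low) crypt cells and split them by EGFP into a High gate, named as stem cells in the labels, and a Low gate, named as transit amplifying cells. The 4 groups were WT-High (n = 3), WT-Low (n = 4), Atg7KO-High (n = 3) and Atg7KO-Low (n = 4), and the labels used here give neither age nor sex. The sorting marker reports Lgr5, so a gate difference in Lgr5 itself follows from the sort. Sample values are listed by title number, in the order WT-High-388, WT-High-411 and WT-High-412, then WT-Low-341, WT-Low-407, WT-Low-409 and WT-Low-411, then Atg7KO-High-356, Atg7KO-High-348 and Atg7KO-High-386, and last Atg7KO-Low-356, Atg7KO-Low-353, Atg7KO-Low-387 and Atg7KO-Low-386. Title numbers that occur in both gates are not said to name the animal.

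Atg7 was the check on the genotype labels. Its log2 signal was 6.77, 6.76 and 6.83 in WT-High, 6.13, 6.37 and 5.91 in Atg7KO-High, 6.92, 6.77, 7.49 and 6.46 in WT-Low and 5.78, 6.06, 6.05 and 5.65 in Atg7KO-Low. Genotypes did not overlap, in either direction, for 25.3% of all genes in EGFP(High) and 3.4% in EGFP(Low) cells. For Atg7, every Atg7KO array lay below every WT array of the same gate. The difference did not pass the test in either gate (-0.65, limma adjusted p = 0.208 in EGFP(High); -1.02, limma adjusted p = 0.166 in EGFP(Low)), and whether the probes lie in the deleted part of the gene is not given in the sources used here. Of 10 Lgr5 stem cell markers, 10 were called higher in the EGFP(High) gate of WT mice and 9 in that of Atg7KO mice. Over all genes 1.22% and 4.48% were called higher. The list includes Lgr5 itself, whose difference follows from the sort. Array medians ran from 4.30 to 4.49, and WT-Low-411 and Atg7KO-High-356 had the narrowest spread of values (SD 1.90 each).

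The EGFP(High) cells had more Ephb3 RNA than the EGFP(Low) cells in both genotypes. Within the Atg7KO mice, EGFP(High) cells had less ephrin-B2 and ephrin-B1 RNA than EGFP(Low) cells. In WT mice these 2 differences did not pass the test, and the gate difference of no gene of the 9 was shown to differ between the genotypes. In WT mice 1 of 9 genes was called at an adjusted p under 0.05 (1 higher, 0 lower), where 2.44% of all 15873 genes tested were called, 1.22% as higher and 1.22% as lower. In Atg7KO mice 3 of 9 were called (1 higher, 2 lower), where 10.9% of all genes were called, 4.48% as higher and 6.44% as lower. The median difference of the 9 genes was -0.05 in WT and 0.10 in Atg7KO mice, beside 0.03 and 0.02 over all genes. A difference is EGFP(High) minus EGFP(Low) on the log2 scale, so that 1 unit is a doubling of the array signal.

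The ephrin-B ligands come first, as the side of the system made away from the stem cells. Efnb2, which encodes ephrin-B2, had a log2 signal of 5.02, 4.99 and 5.18 in the Atg7KO-High samples and 5.80, 6.95, 6.47 and 7.61 in the Atg7KO-Low samples. The groups did not overlap, and the EGFP(High) samples lay close together while the EGFP(Low) samples were spread widely. The difference was -1.64 (SE 0.48, 95% interval -2.67 to -0.61, limma adjusted p = 0.0425), a 3.12-fold lower signal. This call was lost when any of 9 of the 14 arrays was left out (any EGFP(High) array of either genotype, or any Atg7KO-Low array but Atg7KO-Low-356) and with no filter on low values (adjusted p up to 0.120).

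In WT mice the Efnb2 signal was 5.14, 5.26 and 5.25 in WT-High and 7.10, 7.01, 7.26 and 4.90 in WT-Low. All WT-Low samples but WT-Low-411 lay above every WT-High sample, whereas WT-Low-411 was below every one. The difference was -1.35 (SE 0.48, 95% interval -2.38 to -0.32) and did not pass the test (limma adjusted p = 0.179). Without WT-Low-411 it was -1.90 with an adjusted p of 0.0101. Listed from low to high, the group means of Efnb2 were 5.07 ± 0.10 (SD, n = 3) in Atg7KO-High, 5.22 ± 0.06 (SD, n = 3) in WT-High, 6.57 ± 1.12 (SD, n = 4) in WT-Low and 6.71 ± 0.76 (SD, n = 4) in Atg7KO-Low. The genotypes of a gate were neighbours in this order in both cases, and their samples overlapped. They differed by less than the error of the difference in the fit, which shares its spread over all groups. For EGFP(High) cells that error therefore carries the wide spread of the EGFP(Low) samples.

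Efnb1, which encodes ephrin-B1, had a log2 signal of 6.27, 6.75 and 6.72 in Atg7KO-High and 7.64, 7.22, 7.77 and 7.79 in Atg7KO-Low. All 3 EGFP(High) samples were below all 4 EGFP(Low) samples. The difference was -1.03 (SE 0.25, 95% interval -1.56 to -0.50, limma adjusted p = 0.0174), a 2.04-fold lower signal, and it lost its call only without Atg7KO-High-356 (-0.87, adjusted p = 0.0888) among the 14 arrays left out in turn. In WT mice the samples overlapped, with 7.41, 6.95 and 7.14 in WT-High and 7.93, 7.19, 7.31 and 6.68 in WT-Low. The WT difference was -0.11 (SE 0.25, limma adjusted p = 0.889). The order of the group means was Atg7KO-High with 6.58 ± 0.27 (SD, n = 3), WT-High with 7.17 ± 0.23 (SD, n = 3), WT-Low with 7.28 ± 0.51 (SD, n = 4) and Atg7KO-Low with 7.61 ± 0.27 (SD, n = 4). Of these neighbours, WT-High and WT-Low overlapped, and so did WT-Low and Atg7KO-Low; Atg7KO-High and WT-High did not overlap, but their difference did not pass the test, as given with the genotype comparisons.

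Most markers of goblet, enterocyte, enteroendocrine and Paneth cells had a difference below 0 in the gate comparisons of both genotypes. Efnb2 was below 0 in both genotypes too, though called only in Atg7KO mice. Efnb1 was called lower in Atg7KO mice, while its WT difference was -0.11 with overlap. Efnb3, a further ephrin-B gene, had differences above 0 (0.35 in WT and 0.32 in Atg7KO mice), neither called. Its WT-High samples all lay above its WT-Low samples, beside 9.97% of all genes, and its gates overlapped in Atg7KO mice. Beside backgrounds of 6.44% of all genes called lower in Atg7KO and 1.22% in WT mice, 10 of 10 goblet cell markers were called lower in the EGFP(High) gate of Atg7KO mice and 7 of 10 in that of WT mice, where all 10 had a difference below 0 and no overlap. The array means of the list ran from 7.84 to 9.71 in Atg7KO-High, 10.7 to 11.2 in Atg7KO-Low, 9.41 to 9.95 in WT-High and 11.0 to 11.5 in WT-Low. Of 9 enterocyte markers on the array, 6 were called lower in Atg7KO mice and 1 in WT mice, where 8 of the 9 had a difference below 0, with ranges of 7.61 to 7.86, 8.80 to 9.99, 7.75 to 9.28 and 9.02 to 9.70 in the same order of groups. Of 10 enteroendocrine markers 9 and 6 were called lower, with all 10 below 0 in both genotypes, and the ranges were 5.62 to 7.80, 8.25 to 9.62, 6.40 to 7.07 and 8.18 to 9.23. Paneth cells are known for high CD24, and the sort took CD24(low) cells. Of 10 Paneth cell markers 5 and 1 were called lower, with 9 below 0 in each genotype. Their ranges were 7.84 to 9.17, 8.88 to 9.92, 9.06 to 9.85 and 9.61 to 10.6, and all 10 were at or above the array's 40th percentile on every array. Of 6 tuft cell markers that passed the filter, 3 had a difference above 0 in WT mice and 5 in Atg7KO mice. In WT mice 0 were called, and in Atg7KO mice 1 was called higher and 1 lower. The part of these markers in the ephrin-B differences was not tested. In sorted bulk samples, fewer cells of a type and less RNA per cell cannot be told apart. Efnb2 is also a gene of arterial endothelium, and 8 of 10 endothelial markers did not pass the filter: Cdh5 and Kdr were below the 40th percentile on every array, Pecam1 was above it on all 14, and the list's mean stayed between 3.30 and 3.59.

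Among the EphB receptors, Ephb3 carried the clearest gate difference. Its log2 signal was 7.75, 7.30 and 7.32 in WT-High and 5.99, 6.46, 6.05 and 6.16 in WT-Low. In the Atg7KO mice it was 6.98, 7.67 and 7.16 in Atg7KO-High and 6.62, 6.34, 6.18 and 5.62 in Atg7KO-Low. Every EGFP(High) sample lay above every EGFP(Low) sample, across genotypes as well as within them. The difference was 1.29 in WT mice (SE 0.23, 95% interval 0.80 to 1.79, limma adjusted p = 0.0102), a 2.45-fold higher signal. In Atg7KO mice it was 1.08 (SE 0.23, 95% interval 0.59 to 1.58, limma adjusted p = 0.0095), a 2.12-fold higher signal. The WT call was lost without WT-High-388 (1.15, adjusted p = 0.0581) and the Atg7KO call without Atg7KO-High-348 (0.88, adjusted p = 0.0542). From high to low the group means were 7.46 ± 0.25 (SD, n = 3) in WT-High, 7.27 ± 0.36 (SD, n = 3) in Atg7KO-High, 6.19 ± 0.42 (SD, n = 4) in Atg7KO-Low and 6.17 ± 0.21 (SD, n = 4) in WT-Low, and the genotypes of a gate did not differ beyond their spread.

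**Figure D1:**
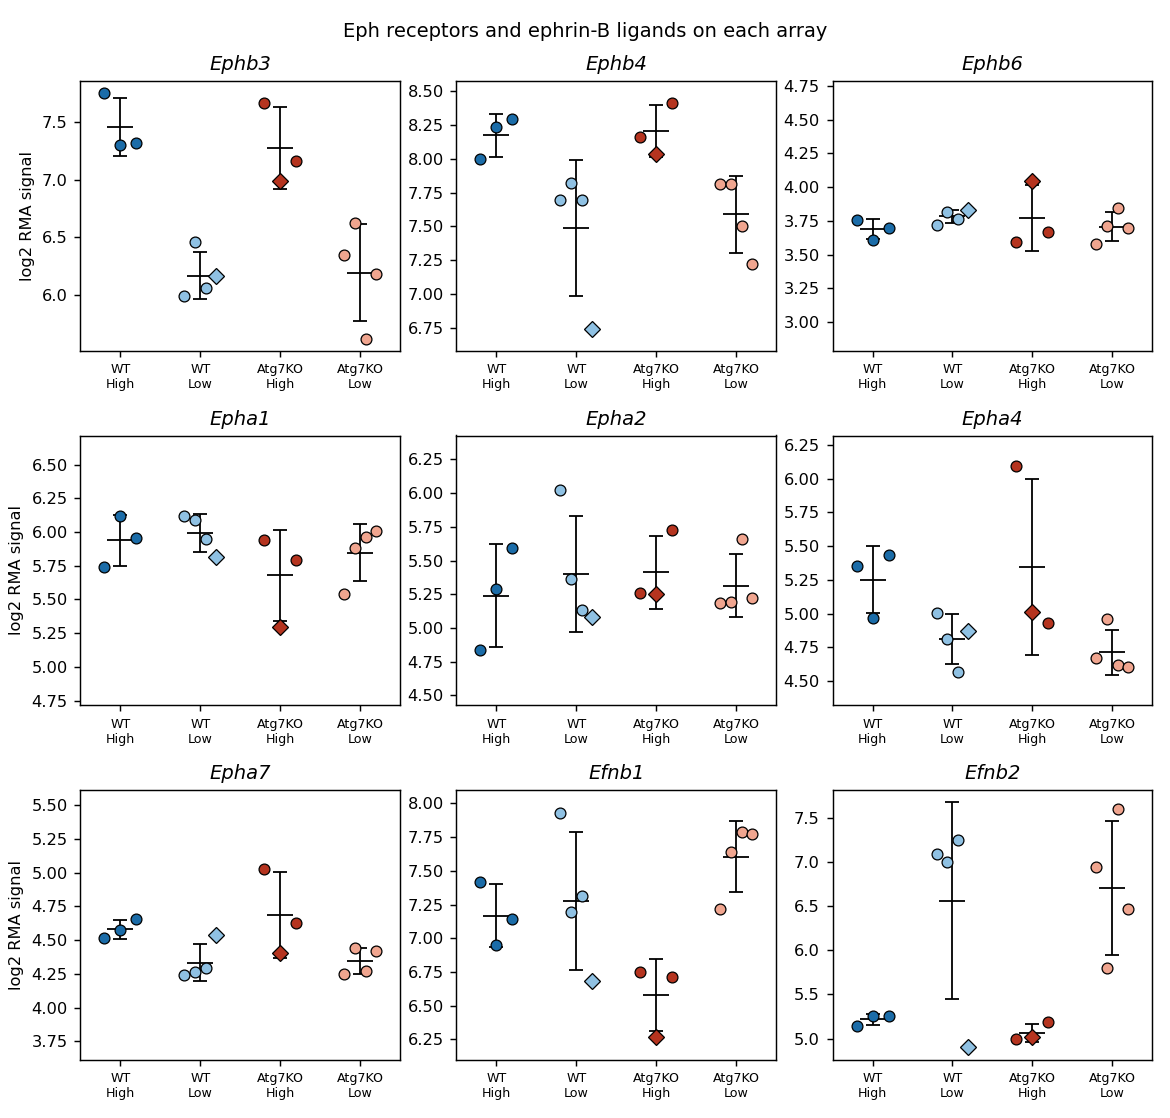
Log2 RMA signal (y axis) of each of the 9 Eph and ephrin genes on each array, by group (x axis). Points are arrays, diamonds are WT-Low-411 and Atg7KO-High-356, and bars show the mean ± SD. The Ephb3 signal of the EGFP(High) groups lies above that of the EGFP(Low) groups, and WT-Low-411 stands apart from its group for Efnb2 at 4.90.

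Ephb4 is the receptor best known as the partner of ephrin-B2. Its log2 signal was 8.00, 8.24 and 8.30 in WT-High and 7.70, 7.82, 7.70 and 6.74 in WT-Low. The Atg7KO values were 8.04, 8.17 and 8.42 in Atg7KO-High and 7.82, 7.81, 7.22 and 7.50 in Atg7KO-Low. The groups did not overlap in either genotype, but neither difference passed the test: 0.69 in WT (SE 0.24, limma adjusted p = 0.165) and 0.62 in Atg7KO (SE 0.24, limma adjusted p = 0.109). Quantile normalization again, which made the calls in Atg7KO mice 2 higher and 2 lower, gave 0.82 for Ephb4 there (adjusted p = 0.0194). With that setting 842 of all genes were called higher and 851 lower in Atg7KO mice. Without WT-Low-411, whose Ephb4 signal was 6.74, the WT difference was 0.44 and not called, and the Atg7KO difference, which that array enters only through the shared spread, stayed at 0.62 and was called (adjusted p = 0.0258). Ephb6, a family member without kinase activity, was near the floor of the arrays. Its group means lay between 3.69 and 3.78, and it reached the 40th percentile on 3 of 14 arrays.

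The EphA receptors bind mainly ephrin-A ligands, and Epha4 also binds ephrin-B ligands. Epha4 had a log2 signal of 5.35, 4.97 and 5.43 in WT-High and 5.00, 4.81, 4.57 and 4.87 in WT-Low. Its Atg7KO values were 5.01, 6.09 and 4.93 in Atg7KO-High and 4.96, 4.67, 4.60 and 4.62 in Atg7KO-Low. Atg7KO-High-348 was well above every other sample, and the groups overlapped in both genotypes. The difference was 0.44 in WT (SE 0.24, limma adjusted p = 0.427) and 0.63 in Atg7KO mice (SE 0.24, limma adjusted p = 0.103), and the Atg7KO value was 0.26 without Atg7KO-High-348.

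Epha7 had a log2 signal of 4.52, 4.57 and 4.66 in WT-High and 4.24, 4.26, 4.29 and 4.53 in WT-Low. In Atg7KO mice it was 4.40, 5.03 and 4.63 and 4.44, 4.25, 4.42 and 4.27. Again Atg7KO-High-348 was the highest sample, and the gates overlapped in both genotypes. The differences were 0.25 (SE 0.15, limma adjusted p = 0.491) and 0.34 (SE 0.15, limma adjusted p = 0.164), and the latter was 0.17 without Atg7KO-High-348. Epha1 and Epha2, receptors found in many epithelia, showed no ordering by gate. Epha1 had group means between 5.68 and 5.99 and Epha2 between 5.24 and 5.41.

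Groups that did not overlap were counted beside the background as well. In WT mice 2 of the 9 genes were higher in every EGFP(High) sample (Ephb3 and Ephb4) and 0 lower, beside 9.97% and 6.52% of all genes. In Atg7KO mice 2 were higher (the same genes) and 2 lower (Efnb1 and Efnb2), beside 10.8% and 11.8% of all genes. The calls over all genes in Atg7KO mice were 711 higher and 1023 lower, and after centring each array on its median 440 and 1251.

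**Figure D2:**
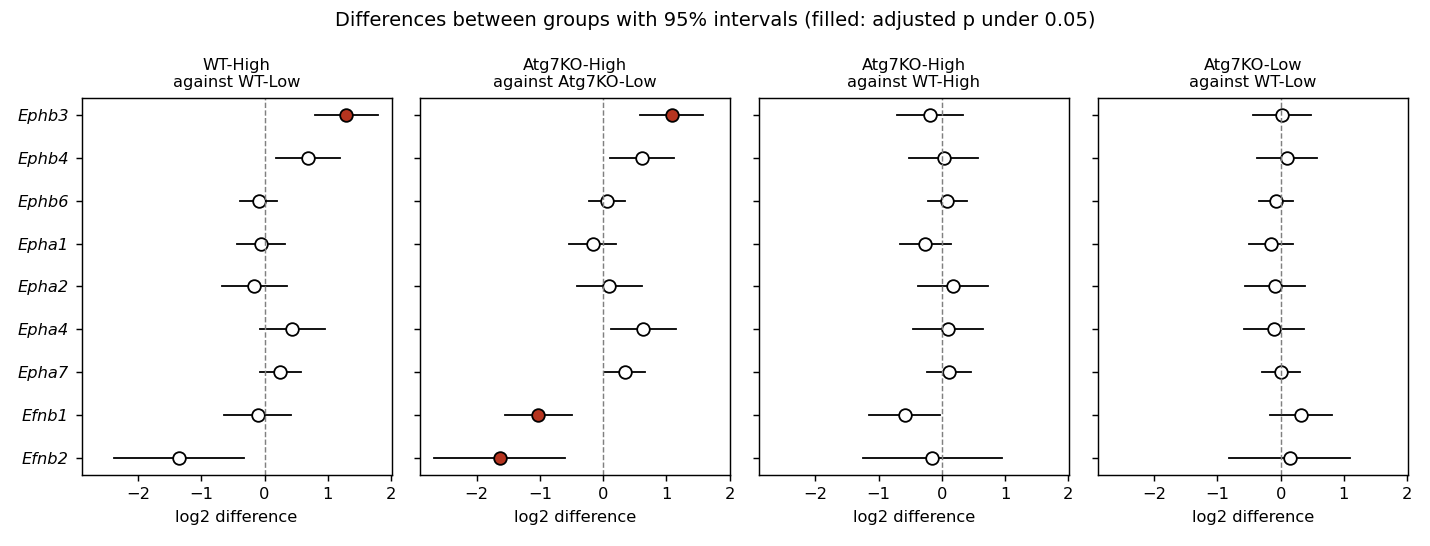
Log2 difference with its 95% interval (x axis) for each of the 9 genes (y axis), in the gate comparisons and in the comparisons of Atg7KO with WT. Ephb3 is above 0 in both gate comparisons (1.29 in WT and 1.08 in Atg7KO mice), Efnb2 is below 0 in both, and in the genotype comparisons the interval of Efnb1 in EGFP(High) cells, -1.16 to -0.02, is the one that leaves out 0.

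Both genotypes were also averaged in 1 gate contrast of the same fit, an alternative chosen after seeing the data. It called 4 of 9 genes, 2 higher and 2 lower, where 12% of all genes were called, 5.75% as higher and 6.24% as lower. Ephb3 differed by 1.19 (SE 0.16, limma adjusted p = 0.000344), Efnb2 by -1.49 (SE 0.34, limma adjusted p = 0.0110), Ephb4 by 0.65 (SE 0.17, limma adjusted p = 0.0211) and Efnb1 by -0.57 (SE 0.18, limma adjusted p = 0.0482). The calls of Ephb3 and Efnb2 held in all 22 other settings, including each array left out in turn. That of Ephb4 held in 20 of the 22, failing with median centring and without WT-High-412, and that of Efnb1 in 8. In the averaged contrast the highest adjusted p over those settings was 0.00150 for Ephb3, 0.0293 for Efnb2, 0.0568 for Ephb4 and 0.119 for Efnb1.

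**Figure D3:**
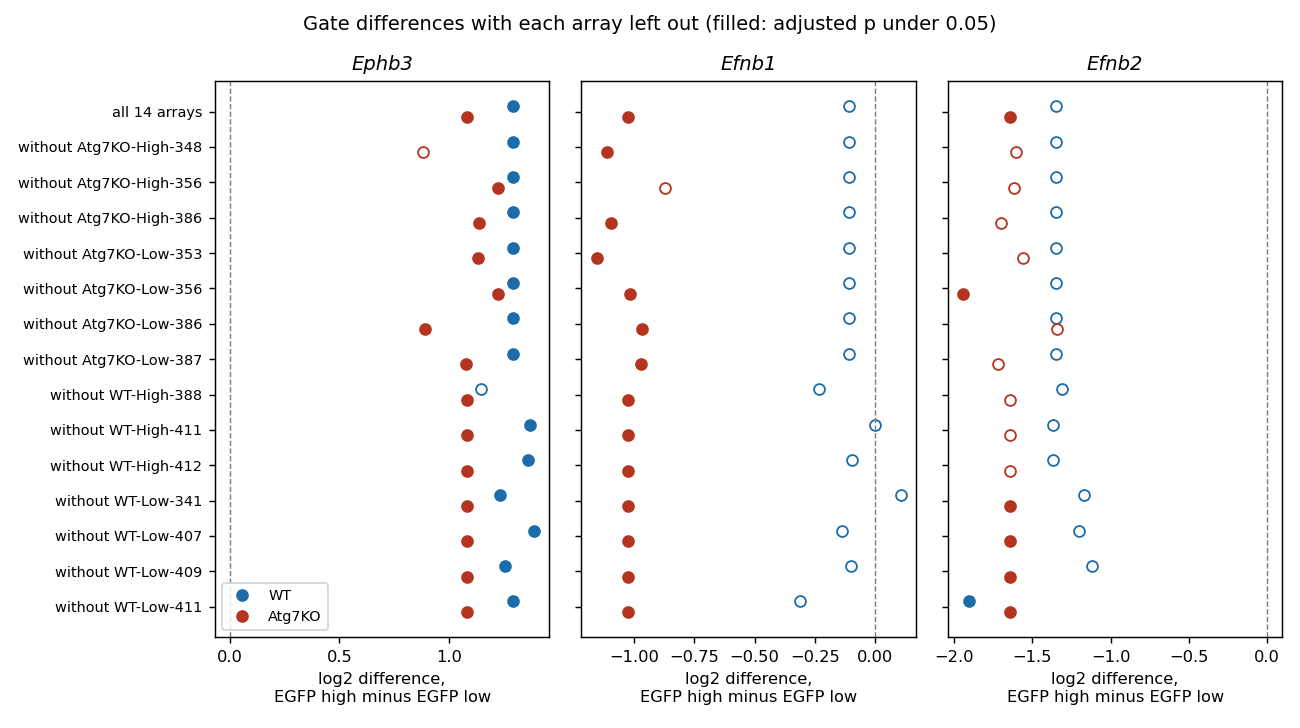
Gate difference, EGFP(High) minus EGFP(Low), of Ephb3, Efnb1 and Efnb2 (x axis, log2) with all arrays and with each of the 14 left out in turn (y axis), in WT (blue) and Atg7KO mice (red); filled points mark an adjusted p under 0.05. The WT difference of Efnb2 moves to -1.90 without WT-Low-411, while that of Ephb3 stays between 1.15 and 1.39.

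The promoters of Ephb3, Efnb1 and Efnb2, the 3 genes called in a gate comparison, are shown because Wnt signalling acts through T-cell factors and Notch signalling through RBPJ, and both pathways are active at the crypt base. Each sequence is the 250 bases before the start of the gene, read 5′ to 3′ on the gene's own strand, from RefSeq's mouse assembly GRCm38.p6; the build of the array's probe sets is not given in the sources used here. A match to the T-cell factor core CTTTGA or the RBPJ core TGGGAA, searched on both strands, is in capitals. All 9 genes matched a promoter entry.
Ephb3, chr16:21204545-21204794, plus strand: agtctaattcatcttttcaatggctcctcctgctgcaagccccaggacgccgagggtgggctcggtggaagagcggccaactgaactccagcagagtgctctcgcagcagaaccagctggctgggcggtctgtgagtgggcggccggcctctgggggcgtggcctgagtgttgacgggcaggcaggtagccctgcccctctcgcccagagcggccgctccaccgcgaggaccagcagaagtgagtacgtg
Efnb1, chrX:99135811-99136060, plus strand: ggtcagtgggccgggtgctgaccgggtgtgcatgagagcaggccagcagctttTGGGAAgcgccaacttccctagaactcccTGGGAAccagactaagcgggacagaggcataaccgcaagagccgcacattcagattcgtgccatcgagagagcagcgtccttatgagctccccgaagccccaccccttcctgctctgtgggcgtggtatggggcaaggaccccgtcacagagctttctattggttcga
Efnb2, chr8:8661243-8661492, minus strand: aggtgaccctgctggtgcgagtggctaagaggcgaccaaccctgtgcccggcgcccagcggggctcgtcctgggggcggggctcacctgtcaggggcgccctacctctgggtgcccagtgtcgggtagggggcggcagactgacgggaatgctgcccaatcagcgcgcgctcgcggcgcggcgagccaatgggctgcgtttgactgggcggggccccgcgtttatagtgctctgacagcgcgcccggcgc
The Efnb1 window held 2 RBPJ cores on its own strand, starting 197 and 168 bases before the start, and those of Ephb3 and Efnb2 held neither motif. Among the other genes, the T-cell factor core occurred in the Epha2 window and the RBPJ core in those of Epha4 and Epha7. Over all 32851 promoter windows of this length, 13.8% held the T-cell factor core and 21.6% the RBPJ core. GC content was 65.6% for Ephb3 and 72.0% for Efnb2, beside a median of 52.4% over all windows, and that of Efnb1 lay between this median and Ephb3. A match is a description of letters in these windows and not a measured binding site.

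None of the 9 genes was called between Atg7KO and WT mice in either gate. In the EGFP(High) gate limma called 0 of 9 genes, beside 0.0126% of all genes. Of all 15873 genes tested, 2519 had an unadjusted p under 0.05 in this comparison, and 1 of the 9 did. That gene was Efnb1, with all 3 Atg7KO-High samples below all 3 WT-High samples and a difference, Atg7KO minus WT, of -0.59 (SE 0.27, 95% interval -1.16 to -0.02, limma adjusted p = 0.297). It was the only gene of the 9 whose genotypes did not overlap in that gate, beside 25.3% of all genes that did not overlap in either direction. In the same comparison all 10 goblet and all 9 enterocyte markers had differences below 0, with medians of -1.01 and -0.63. The median of all genes was -0.03. Also below 0 were 9 of 10 Paneth, 7 of 10 enteroendocrine, 2 of 6 tuft and 3 of 10 Lgr5 stem cell markers. None of these markers was called, and their part in the Efnb1 difference was not tested. Ephb3 differed by -0.19 (95% interval -0.71 to 0.34) and Efnb2 by -0.15 (95% interval -1.25 to 0.95), so a difference of about 1 unit in Efnb2 lies within its interval. That interval uses a spread shared by all groups. For Efnb2 the EGFP(Low) samples were spread far more widely than the EGFP(High) samples compared here, so the width does not describe the EGFP(High) samples alone. Means of the other 6 genes differed by -0.26 (Epha1) to 0.17 (Epha2).

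In the EGFP(Low) gate limma again called 0 of 9, beside 0.0063% of all genes. An unadjusted p under 0.05 was found for 0 of the 9, beside 1152 of all 15873 genes tested. Ephb3 differed by 0.02 (95% interval -0.43 to 0.48), Efnb1 by 0.33 (95% interval -0.16 to 0.82) and Efnb2 by 0.14 (95% interval -0.81 to 1.10). Without WT-Low-411 the Efnb2 difference was -0.41, and without Atg7KO-Low-386 it was -0.16, so its direction rests on single arrays. Without WT-Low-411 the Efnb1 difference was 0.13, and without WT-Low-341 it was 0.54. The direction of the Ephb3 difference also turned, to as low as -0.12, when other single arrays were left out. None of the 9 genes had genotypes that did not overlap in this gate, beside 3.4% of all genes.

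The change of the Atg7 difference between the gates was tested as an interaction. The test called 0 of 9 genes with limma, beside 0.0063% of all genes. Of all 15873 genes tested, 2225 had an unadjusted p under 0.05 for this term, and 1 of the 9 did. Efnb1 again was that gene, with an Atg7 difference lower by 0.92 in EGFP(High) than in EGFP(Low) cells (-0.92, SE 0.35, 95% interval -1.67 to -0.17, limma adjusted p = 0.288). The gate difference of Efnb1 that was called in Atg7KO mice and not in WT mice was therefore not shown to differ between the genotypes. For Ephb3 the same term was -0.21 (SE 0.33, limma adjusted p = 0.786). The term was below 0 for all 10 goblet and all 9 enterocyte markers. It was also below 0 for 9 of 10 Paneth, 6 of 10 enteroendocrine, 1 of 6 tuft and 5 of 10 Lgr5 stem cell markers. None of these markers was called, and their part in the Efnb1 term was not tested. The 4 comparisons of groups share samples, so they are not independent of each other.

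Of the other Eph receptors and ephrins, 12 were listed, 12 were on the array and 9 passed the filter; Epha3, Epha6 and Ephb1 did not. In the gate comparisons 1 of the 9 was called in WT mice (Efna4, higher) and 2 in Atg7KO mice (Efna3 and Efna4, both higher), beside 2.44% and 10.9% of all genes. The median difference of the 9 was 0.15 in WT and 0.27 in Atg7KO mice. Efna4, encoding ephrin-A4, had a log2 signal of 6.52, 6.51 and 6.55 in WT-High and 5.48, 5.26, 5.33 and 5.25 in WT-Low. In Atg7KO mice the values were 6.26, 5.98 and 6.18 and 5.26, 5.61, 5.45 and 5.61. The gates did not overlap in either genotype. The difference was 1.20 in WT (SE 0.13, limma adjusted p = 0.000645), rank 6 by p among the 15873 genes, and 0.65 in Atg7KO mice (SE 0.13, limma adjusted p = 0.00730). It kept its call without each of the 14 arrays in turn, in both genotypes.

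Efna3, encoding ephrin-A3, was 4.58, 4.83 and 4.95 in WT-High and 4.38, 4.14, 3.98 and 4.24 in WT-Low. The Atg7KO values were 5.06, 5.39 and 5.38 in Atg7KO-High and 3.64, 4.23, 4.37 and 4.53 in Atg7KO-Low. All EGFP(High) samples were above all EGFP(Low) samples of their genotype, and the difference passed the test in Atg7KO mice (1.09, SE 0.20, limma adjusted p = 0.0037) but not in WT mice (0.60, SE 0.20, limma adjusted p = 0.133). Efna1, encoding ephrin-A1, was 6.96, 7.09 and 6.96 in WT-High and 5.79, 6.30, 6.65 and 5.19 in WT-Low, and 6.87, 7.20 and 7.09 in Atg7KO-High and 6.56, 6.22, 6.21 and 6.41 in Atg7KO-Low. Its gates did not overlap, and its differences of 1.02 (SE 0.26, limma adjusted p = 0.0512) in WT and 0.70 (SE 0.26, limma adjusted p = 0.0922) in Atg7KO mice did not pass the test. With the averaged contrast all 3 were called, Efna4 at 0.93 (adjusted p = 3.61e-05), Efna3 at 0.85 (adjusted p = 0.00119) and Efna1 at 0.86 (adjusted p = 0.00677).

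**Figure D4:**
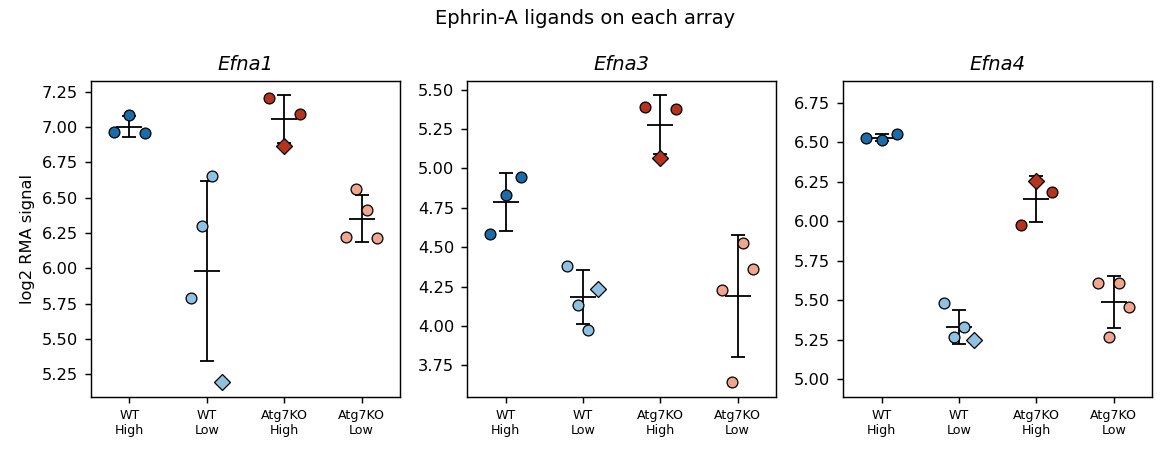
Log2 RMA signal (y axis) of the ephrin-A ligands Efna1, Efna3 and Efna4 on each array, by group (x axis); points are arrays, diamonds are WT-Low-411 and Atg7KO-High-356, and bars show the mean ± SD. The Efna4 samples of WT-High lie between 6.51 and 6.55, above all WT-Low samples.

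Against WT, limma called 0 of these 9 other genes in either gate, beside 0.0126% of all genes in EGFP(High) and 0.0063% in EGFP(Low) cells. At an unadjusted p under 0.05 there were 2 in EGFP(High) cells, beside 2519 of all 15873 genes tested. In EGFP(Low) cells there were 0, beside 1152 of all genes tested. In EGFP(High) cells 3 of the 9 had genotypes that did not overlap, near the 25.3% of all genes. The genes with an unadjusted p under 0.05 were Efna4, lower in every Atg7KO-High sample (-0.39, SE 0.14, limma adjusted p = 0.228), and Efna3, higher in every one (0.49, SE 0.21, limma adjusted p = 0.279). The interaction for Efna4 was -0.55 (SE 0.19, limma adjusted p = 0.263). Group means of the remaining genes were 5.18 to 5.30 for Epha10, 4.09 to 4.57 for Efnb3, 3.93 to 4.23 for Efna2, 3.84 to 4.07 for Epha8, 3.83 to 3.90 for Epha5 and 3.70 to 3.94 for Efna5, and none of these 6 was called in a gate comparison.

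A list of 44 genes that act with Eph receptors (adaptors, kinases, proteases and others) had 42 on the array and 40 that passed the filter. In WT mice 1 was called higher and 0 lower in the EGFP(High) gate, beside 2.44% of all genes called, so that the share of the list (1 of 40) was near the background. The list median was 0.17 and that of all genes 0.03. That gene was Grb7, an adaptor (0.72, SE 0.15, limma adjusted p = 0.0260), and its call was lost without WT-Low-341, WT-Low-407 or any WT-High array. In Atg7KO mice 0 were higher and 5 lower, a share (5 of 40) near the 10.9% of all genes called, with 6.44% of all genes called lower. The list median was -0.01 and that of all genes 0.02. Rock1, a kinase that acts on the cytoskeleton, fell by 0.66 (limma adjusted p = 0.00659). The adaptor Grb2 fell by 0.72 (limma adjusted p = 0.0160) and Sdcbp, the scaffold syntenin that binds the tail of ephrin-B ligands, by 0.65 (limma adjusted p = 0.0174). The GTPase Rac1 fell by 0.51 (limma adjusted p = 0.0450) and Mmp7, a protease of Paneth cells, by 1.05 (limma adjusted p = 0.0458). The call of Grb2 was lost without Atg7KO-High-356, that of Sdcbp without Atg7KO-High-348 or Atg7KO-High-386, and those of Rac1 and Mmp7 without each of 12 and 10 arrays in turn. With quantile normalization again Sdcbp differed by -0.41, Rac1 by -0.27 and Mmp7 by -0.83, and none of these was called. In the comparisons of Atg7KO with WT limma called 0 of the 40. At an unadjusted p under 0.05 there were 5 in EGFP(High) cells, beside 2519 of all 15873 genes tested. In EGFP(Low) cells there were 2, beside 1152 of all genes tested.

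The known Wnt target Axin2 and the differentiation keratin Krt20 give the scale of the gate difference. Axin2 rose by 1.64 in WT and 1.23 in Atg7KO EGFP(High) cells, and Krt20 fell by 1.73 and 2.55; the WT call of Krt20 was lost with no filter and without WT-Low-341, WT-Low-407, WT-Low-409, WT-High-411 or WT-High-412. Lgr5, on which the sort rests, differed by 3.52 and 3.32. Of the 10 reference genes tested, Lgr5, Axin2 and Cd44 were called higher and Krt20 lower in both genotypes. Sox9, Myc and Ascl2 were called higher in WT mice only, and Alpi lower in Atg7KO mice only. Over all genes 1.22% were called higher and 1.22% lower in WT mice, and 4.48% and 6.44% in Atg7KO mice. None of the 10 was called in the interaction, beside 0.0063% of all genes. Within a gate, 8 relations among Lgr5, Ephb3, Efnb1 and Efnb2 across samples were computed. None passed after Benjamini-Hochberg adjustment (adjusted p 0.492 to 0.836 for Pearson's r and 0.385 to 0.803 for Spearman's rank correlation, exact permutation tests, two-sided). In the EGFP(Low) gate (n = 8) Ephb3 and Efnb2 had r = -0.47 (exact permutation p = 0.226) and a Spearman rank correlation of -0.64 (exact permutation p = 0.0962). Without Atg7KO-Low-356 and Atg7KO-Low-386, the samples farthest from the median of Ephb3, r was 0.02, so the relation rests on those samples. In the EGFP(High) gate (n = 6) Lgr5 and Ephb3 had r = 0.58 (exact permutation p = 0.211) and a Spearman rank correlation of 0.83 (exact permutation p = 0.0583), with r = 0.95 without WT-High-388 and WT-High-411. Values of r on so few remaining samples are unstable. In the same gate r of Ephb3 with Efnb2 moved from -0.12 to 0.98 without Atg7KO-High-348 and WT-High-388.

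The genes most like the 3 called members across the 14 arrays were found by Pearson's r, which here also takes in differences between the 4 groups. For Ephb3 they were Sema3c (0.94), which encodes a secreted semaphorin, Dcp1b (0.94) and Clic6 (0.93). For Efnb2 they were Slc41a2 (0.95), Rep15 (0.93) and Gde1 (0.92), and for Efnb1 they were Ms4a18 (0.93), Bscl2 (0.93) and Slc7a7 (0.92). These are descriptions over arrays that share 4 groups.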

How the data were processed

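RNA of 14 sorted crypt cell samples was measured on arrays, after amplification from 1 ng of total RNA, per the labels' protocols. Per the submitters' processing notes, the deposited log2 values come from RMA in Affymetrix Expression Console (versions not given). RMA makes the distributions of the arrays alike and can narrow large differences. Of 25429 probe sets, 24675 had 1 gene symbol, 0 had several and 754 had none listed and were left out. Genes at or above an array's 40th percentile on at least 3 arrays were tested, 15873 in all. A limma 3.58.1 model (R 4.3.3) of the 4 group means took in all 14 arrays, with no block. P-values are two-sided and adjusted by Benjamini-Hochberg over all genes tested; called means adjusted p under 0.05. SE and intervals come from this fit, which was tested on simulated data. Precision is limited by the number of arrays. The members, lists and the rule for named genes (all members, every listed family gene that passed the filter, up to 6 called partners by smallest p, reference genes, and the 3 genes most alike) were chosen with earlier results of these data known. Alternatives covered the prior, the groups fitted, scaling, filters, array weights, a block on the title number and arrays left out. No protein sequences were used.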

Additional observations from a re-analysis of the deposited data

Results flagged for a closer look

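Among 36 sets of 4 EGFP(Low) samples, 1 set per family gene and genotype, 4 had a sample far from the other 3, and chance gives about 5% of sets. In 3 of the 4 it was WT-Low-411. Its Efnb2 signal was 4.90, where the nearest other sample had 7.01. Its Ephb4 signal was 6.74, with the nearest at 7.70, and its Epha7 signal was 4.53, with the nearest at 4.29. For these 3 genes the sample lay on the side of the WT-High samples for Efnb2 and Epha7 and on the far side from them for Ephb4. WT-Low-411 was also one of the arrays with the narrowest spread of values. The other was the Epha2 signal of 5.66 in Atg7KO-Low-386, with the nearest sample at 5.22. The part of array quality in these values was not tested.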

How the results depend on the processing

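The number of genes called in the WT gate comparison, 1, was 3 with array weights (Ephb3, Ephb4 and Efnb2), 2 without WT-Low-411 and Atg7KO-High-356, 4 with both genotypes averaged, and 0 to 2 with each array left out in turn; it was 0 without WT-High-388 and 2 without WT-Low-411. The number in the Atg7KO gate comparison, 3, was 1 to 4 with each array left out; it was 1 without Atg7KO-High-356 or Atg7KO-High-348. The cause of these shifts was not tested. Both genotype comparisons and the interaction kept 0 in every setting run, although array weights raised the calls over all genes in EGFP(High) cells from 2 to 703 and those of the WT gate comparison from 193 higher and 194 lower to 642 and 559. Differences near 0 changed sign. With arrays left out, the WT gate difference of Efnb1 ran from -0.31 to 0.11, the difference between Atg7KO-Low and WT-Low from -0.12 to 0.22 for Ephb3 and from -0.41 to 0.44 for Efnb2. With array weights the last comparison gave -0.014 for Ephb3 and -0.11 for Efnb2, and without WT-Low-411 and Atg7KO-High-356 it gave -0.41 for Efnb2. Deviations of samples with the same title number in both gates had correlations of 0.11 and 0.18 for the Atg7KO numbers and -0.04 for the WT number. Such values cannot show whether arrays with the same number come from the same mouse. The numbers were not taken to pair samples, because they are not said to name the animal. With the number as a replicate block the members called stayed at 1, 3, 0, 0 and 0, the calls over all genes were 445 in the WT and 1965 in the Atg7KO gate comparison, and Efna1 in WT mice was called at 1.04 (adjusted p = 0.0435). Of 991 recomputed differences of single genes, 903 kept direction and side of the threshold, 58 lost a call, 20 gained one and 10 changed sign. Ephb6 lies near the array floor, which limits what can be seen of it.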
